A study of Mus musculus with 8 samples.

Results

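The 38 genes described here mark macrophages, and a number of them mark the lipid-associated macrophages of obese fat. They were taken from a list of symbols, each read from its 1 probe set, and all 38 were measured among 18820 genes in white adipose tissue. The mutant mice, called Sel1l-/- as in the labels, lacked Sel1l in adipocytes, through floxed Sel1l alleles and a Cre recombinase under the adiponectin promoter. The controls were wildtype (WT), and the sources do not say whether they carried floxed alleles or Cre. All 8 mice, 4 of each genotype, were males of a mixed C57BL/6N and C57BL/6J background that spent 5 weeks on the high fat diet D12492 of Research Diets. Neither their age nor the fat depot is stated in the sources used. Sel1l makes a partner protein of the Hrd1 ubiquitin ligase in the endoplasmic reticulum, and the adiponectin promoter is active in adipocytes, so that macrophages of the same tissue were not the cells at which the deletion was aimed.

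Macrophages take up dying cells, debris and lipid. In expanding fat they are recruited in part as monocytes and gather around dead adipocytes, where they load lipid into enlarged lysosomes and switch on a programme that depends on the receptor Trem2 and its adapter Tyrobp. Genes such as Gpnmb, Cd9, Atp6v0d2 and Itgax mark that state, whereas Adgre1, Csf1r, Cd68 and the C1q chains are made by most tissue macrophages. Some of the 38 genes are not confined to macrophages: Cd63, Cd9 and Lgals3 are also made by adipocytes, fibroblasts or other cells, and Itgam and Itgb2 by other leukocytes.

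Values are log2 expression, so that a difference of 1 is a doubling. The array medians lay at 6.10 to 6.14 in Sel1l-/- and 6.05 to 6.08 in WT mice, and the number of arrays limits the precision. Sel1l itself read 9.56, 9.78, 9.72 and 10.07 in Sel1l-/- mice 1 to 4, against 10.48, 10.57, 10.58 and 10.65 in WT mice 1 to 4, without overlap, and was lower in Sel1l-/- tissue (log2 fold change -0.79, limma adjusted p = 0.0109). That call was lost when the mouse code letter or number was blocked. The lowest value of any macrophage gene on any array was 6.55, for Cx3cr1 in WT mouse 1, above the lower quartile of all probe sets, which was 4.33 to 4.37, so the macrophage genes were read above the dim end of the scale in all 8 mice.

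The macrophage genes varied more between mice of a genotype than between the genotypes. None of the 38 passed an adjusted p of 0.05 in the limma fit over all genes, in either direction, where 1.72% of all 18820 genes did (1.04% higher and 0.685% lower). At an unadjusted p under 0.05 there was 1 of 38, Ms4a7, where 15.0% of all genes reached that level. The adjusted p of the 38 ran from 0.308 to 0.997. None of the 38 had Sel1l-/- and WT arrays without overlap, where 10.3% of all genes did, 5.22% with Sel1l-/- higher. The fold changes leaned to 1 side all the same: 36 of 38 were positive, with a median log2 fold change of 0.31 and a range of -0.17 to 1.22, whereas 48.8% of all genes were positive and their median was 0.00. With each array centred on its median, 35 of 38 macrophage genes and 35.8% of all genes were positive, and the medians were 0.27 and -0.05. These genes share their mice and move together, so 36 positive signs are not 36 separate observations. In whole tissue, more macrophages and more RNA of these genes in each cell cannot be told apart.

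The mean of the 38 genes in each mouse shows the size of that lean. It was 9.75, 10.28, 10.15 and 10.85 in Sel1l-/- mice 1 to 4, against 9.42, 10.25, 9.37 and 10.47 in WT mice 1 to 4. The Sel1l-/- mice averaged 10.26 ± 0.46 and the WT mice 9.88 ± 0.56 (SD, n = 4 each), a difference of 0.38, or 1.30-fold, which is less than 1 SD of either group. The range within the 4 Sel1l-/- mice was 1.10 (2.15-fold) and that within the 4 WT mice was 1.09 (2.13-fold). The groups therefore overlapped over most of their ranges, with Sel1l-/- mouse 4 above all others and WT mice 1 and 3 below all others. Single mice moved the difference: it was 0.18 without Sel1l-/- mouse 4, 0.23 without WT mouse 1, 0.21 without WT mouse 3 and 0.58 without WT mouse 4. The labelled mouse codes, whose meaning is not explained, begin with a letter and a number. Letter E was carried only by WT mice 1 to 3 and letter G only by Sel1l-/- mice 3 and 4. Genotype and letter can therefore be told apart only within letter F. Among mice of letter F (2 Sel1l-/- and 1 WT) the difference was -0.45. It was 0.20 for mice coded 5 (1 Sel1l-/- and 2 WT) and 0.06 for those coded 7 (2 Sel1l-/- and 1 WT). Those coded 9, with 1 mouse of each genotype, differed by 0.91. Mice of the same replicate number share neither code letter nor code number. Their deviations over all genes correlated at r = 0.107 to 0.524, and mice of different numbers reached 0.328. Between mice of the same replicate number the mean of the 38 differed by 0.32, 0.04, 0.78 and 0.39 for numbers 1 to 4. The Sel1l-/- mouse was therefore higher in all 4 pairs, a pairing taken from the data.

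**Figure D1:**
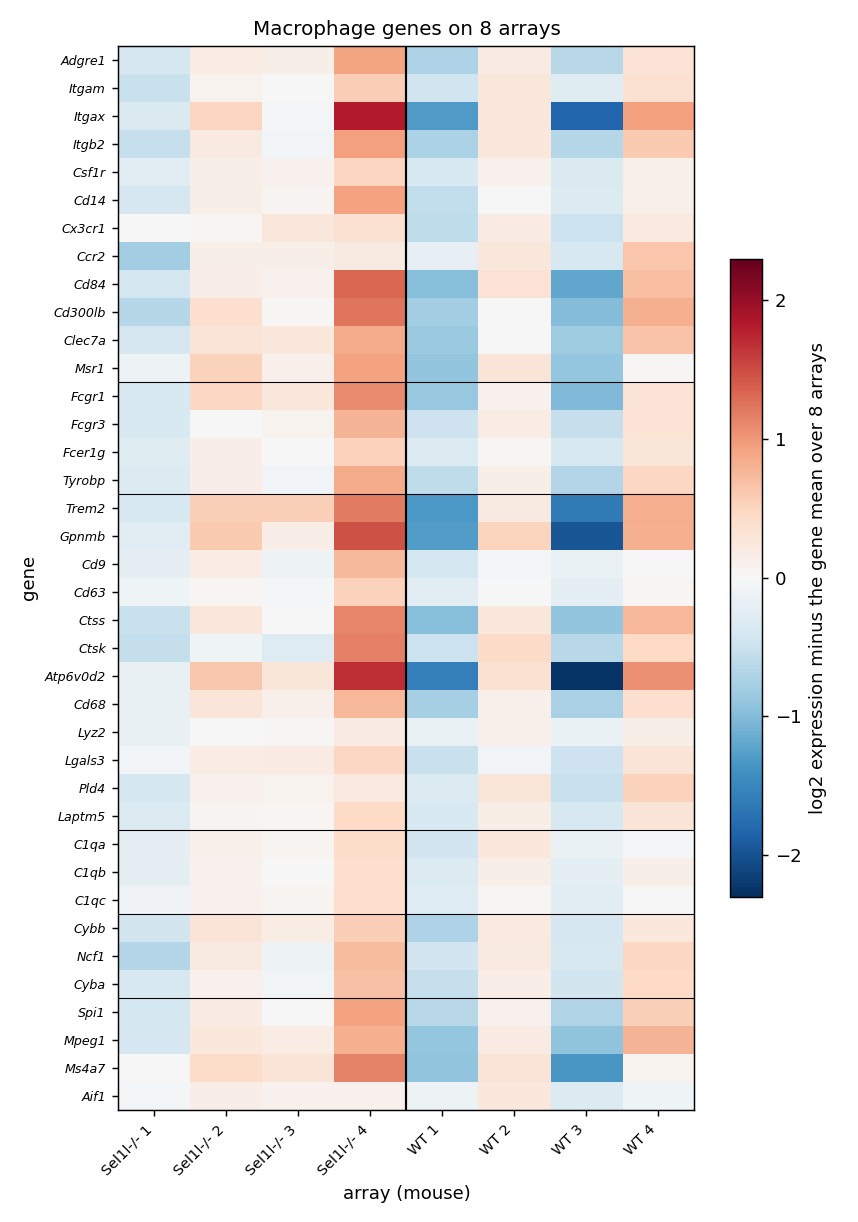
Log2 expression of the 38 macrophage genes (rows, grouped by role) on the 8 arrays (columns, Sel1l-/- left and WT right), as the difference from each gene's mean over the 8 arrays. Red is higher and blue lower; Sel1l-/- mouse 4 is the reddest column, and WT mice 1 and 3 are blue down the whole list.

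The order of the mice was nearly the same from gene to gene. Among Sel1l-/- mice, mouse 1 was lowest for 38 of 38 genes and mouse 4 highest for 37, the exception being Aif1, which was highest in mouse 2. Both conditions held for 37 of 38 macrophage genes and for 14.7% of all genes. Among WT mice, mice 1 and 3 both lay below mice 2 and 4 for 38 of 38 genes, and for 20.3% of all genes. WT mouse 4 was the highest WT mouse for 32 genes and mouse 2 for 6. These orders were noticed in the values and are given as a description, with no test. WT mice 1, 2 and 3 share a code letter, WT mouse 4 was the only WT mouse of letter F, and WT mice 1 and 4 share a code number. Whether the mouse codes bear on these orders was not tested.

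Across the 8 mice, the 703 pairs of macrophage genes had a median Pearson correlation of 0.92, and 83.5% of pairs were above 0.8, with a lowest value of 0.40. All points share the same 8 arrays, so these values describe the arrays. Cd84, a SLAM family receptor of leukocytes, followed the mean of the other 37 genes most closely (r = 0.993), and 32 of 38 genes had an r above 0.9. The loosest were Aif1 (0.65), an actin-binding protein also called Iba1, Ccr2 (0.70), the chemokine receptor of recruited monocytes, and Cd9 (0.84), a tetraspanin. Outside the 38 genes, the 6 with the highest correlation with the mean of the 38, over 8 arrays, were Myo1f (0.998), an unconventional myosin, Ifi30 (0.996), a lysosomal thiol reductase, Dpep2 (0.996), a membrane dipeptidase, Cd53 (0.995), a leukocyte tetraspanin, Matk (0.995), a tyrosine kinase, and Lpxn (0.995), an adhesion adapter. None of these 6 passed the threshold between genotypes (adjusted p 0.561 to 0.703). In all, 627 genes outside the list, 3.34% of them, reached an r of 0.9.

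The 4 genes with the widest spread between mice, Atp6v0d2, Itgax, Gpnmb and Trem2, are markers of the lipid-associated state, and they had the largest fold changes of the 38. Atp6v0d2, a subunit of the vacuolar proton pump found in osteoclasts and lipid-laden macrophages, read 10.21, 10.99, 10.66 and 12.07 in Sel1l-/- mice 1 to 4, against 8.80, 10.73, 8.12 and 11.42 in WT mice 1 to 4. Its log2 fold change of 1.22 was the largest of the 38 (95% interval -0.45 to 2.88, adjusted p = 0.503), but the 4 WT mice alone spanned 9.85-fold. WT mice 1 and 3 were lower than any Sel1l-/- mouse, and WT mouse 4 was higher than all but Sel1l-/- mouse 4. Gpnmb, a lysosomal glycoprotein, read 10.96, 11.82, 11.37 and 12.68 in Sel1l-/- mice 1 to 4, against 9.93, 11.73, 9.26 and 12.04 in WT mice 1 to 4. The log2 fold change was 0.97 (95% interval -0.50 to 2.44, adjusted p = 0.547), and the same 2 WT mice were the low ones. Trem2, the lipid receptor of the programme, read 9.27, 10.19, 10.19 and 10.81 in Sel1l-/- mice 1 to 4, against 8.31, 9.84, 8.03 and 10.47 in WT mice 1 to 4. Its log2 fold change was 0.95 (95% interval -0.32 to 2.23, adjusted p = 0.489), with Sel1l-/- mice spanning 2.9-fold and WT mice 5.42-fold. Itgax (CD11c), an integrin chain that marks macrophages of crown-like structures and also dendritic cells, read 8.70, 9.54, 8.99 and 10.87 in Sel1l-/- mice 1 to 4, against 7.73, 9.30, 7.21 and 9.99 in WT mice 1 to 4. The difference on the log2 scale was 0.97 (95% interval -0.58 to 2.51, adjusted p = 0.572), and the groups overlapped from 8.70 to 9.99. For these 4 genes the data leave both no difference and a rise of more than 4-fold inside the interval.

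**Figure D2:**
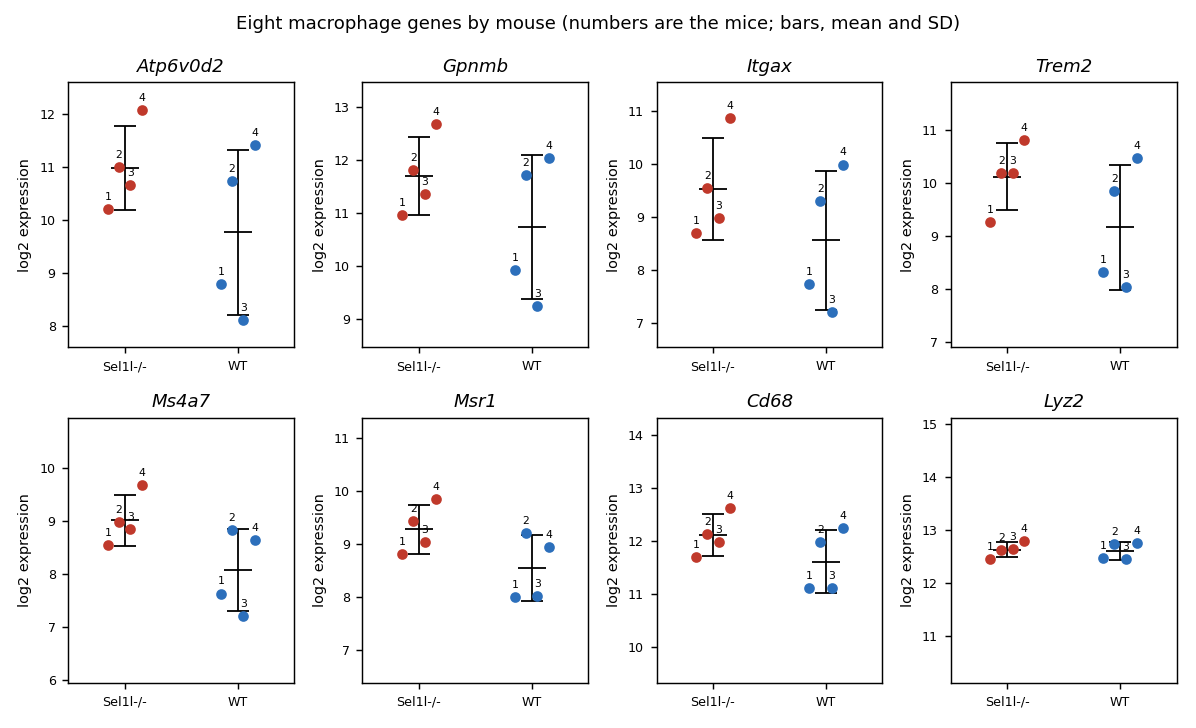
Log2 expression of 8 macrophage genes in each mouse (Sel1l-/- left in red, WT right in blue; numbers name the mice; bars show the mean and SD of 4 mice). All panels span the same height, so the wide scatter of Atp6v0d2, Gpnmb, Itgax and Trem2 can be set against the narrow scatter of Lyz2; in each panel the groups overlap.

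The other lysosomal and phagocytic genes had smaller differences. Cd68, a lysosomal glycoprotein used to stain macrophages, read 11.69, 12.13, 11.98 and 12.62 in Sel1l-/- mice 1 to 4, against 11.10, 11.97, 11.11 and 12.24 in WT mice 1 to 4 (log2 fold change 0.50, adjusted p = 0.496). WT mice 1 and 3 lay below all Sel1l-/- mice, and WT mice 2 and 4 lay among them. Lgals3, a secreted galectin, averaged 12.11 ± 0.22 in Sel1l-/- and 11.72 ± 0.38 in WT mice (log2 fold change 0.39, adjusted p = 0.392). Ctss, a cysteine protease of antigen-presenting cells, averaged 10.29 ± 0.68 in Sel1l-/- and 9.86 ± 0.86 in WT mice (log2 fold change 0.44). Ctsk, the collagen-degrading cathepsin, read 8.39, 8.84, 8.65 and 10.11 in Sel1l-/- mice 1 to 4, against 8.45, 9.39, 8.31 and 9.41 in WT mice 1 to 4, and its log2 fold change of 0.11 turned negative without Sel1l-/- mouse 4, WT mouse 1 or WT mouse 3. The tetraspanins Cd9 and Cd63 had log2 fold changes of 0.30 and 0.22, with Cd9 at 9.13 ± 0.43 in Sel1l-/- and 8.84 ± 0.19 in WT mice and Cd63 at 11.22 ± 0.28 in Sel1l-/- and 11.01 ± 0.15 in WT mice. At the other end, Lyz2, lysozyme, read 12.44, 12.62, 12.63 and 12.79 in Sel1l-/- mice 1 to 4, against 12.46, 12.73, 12.45 and 12.75 in WT mice 1 to 4. Its log2 fold change was 0.02 (95% interval -0.21 to 0.25), turning to -0.02 with the arrays centred, and whether the arrays compress differences at such high levels was not tested. Its probes may also read the near-identical Lyz1. Pld4, a lysosomal nuclease, averaged 10.48 ± 0.27 in Sel1l-/- and 10.49 ± 0.49 in WT mice (95% interval -0.55 to 0.54), and Laptm5, a lysosomal membrane protein of leukocytes, 11.82 ± 0.31 in Sel1l-/- and 11.69 ± 0.35 in WT mice (log2 fold change 0.13). Of the 12 genes of this group none passed, 11 had positive fold changes and the median log2 fold change was 0.34.

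Among the 12 surface receptors and integrins none passed in the fit without pairing, 11 had positive fold changes and the median log2 fold change was 0.40. Msr1, scavenger receptor A, read 8.81, 9.44, 9.04 and 9.85 in Sel1l-/- mice 1 to 4, against 8.01, 9.22, 8.03 and 8.95 in WT mice 1 to 4. The log2 fold change was 0.74 (95% interval -0.01 to 1.48, adjusted p = 0.34). Replicate numbers run from 1 to 4 in either genotype, and with them as a block Msr1 passed (adjusted p = 0.0437) and was the only 1 of the 38 genes to do so, where 3.85% of all genes passed in that fit and 1.90% were higher. The differences between same-numbered mice were 0.80, 0.22, 1.01 and 0.91. Of the 38 genes, 22 were higher in the Sel1l-/- mouse in all 4 same-numbered pairs, or 57.9%, against 14.7% of all genes. The pairing was taken from these same arrays and the 38 genes move together, so these are not 22 separate observations. Adgre1, an adhesion receptor long used to stain macrophages, read 10.09, 10.65, 10.61 and 11.39 in Sel1l-/- mice 1 to 4, against 9.76, 10.66, 9.84 and 10.79 in WT mice 1 to 4 (log2 fold change 0.42, adjusted p = 0.605). WT mice 2 and 4 lay above Sel1l-/- mice 1, 2 and 3, so this marker did not separate the genotypes. Csf1r, the receptor for the growth factors that sustain macrophages, averaged 11.14 ± 0.30 in Sel1l-/- and 10.90 ± 0.26 in WT mice (log2 fold change 0.24, adjusted p = 0.582).

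The remaining receptors showed the same arrangement of mice. Clec7a (dectin-1), a receptor for fungal glucans, averaged 8.76 ± 0.51 in Sel1l-/- and 8.25 ± 0.73 in WT mice, Cd84 9.71 ± 0.73 in Sel1l-/- and 9.14 ± 0.94 in WT mice, and Cd300lb, an activating receptor of myeloid cells, 8.58 ± 0.78 in Sel1l-/- and 8.08 ± 0.83 in WT mice. Their log2 fold changes were 0.50, 0.58 and 0.49, each below its SD in WT mice. Cd14, the lipopolysaccharide co-receptor, averaged 8.41 ± 0.54 in Sel1l-/- and 8.04 ± 0.31 in WT mice, and Cx3cr1, the fractalkine receptor, 7.31 ± 0.17 in Sel1l-/- and 6.98 ± 0.43 in WT mice, with log2 fold changes of 0.37 and 0.33. The integrin chains Itgam (CD11b) and Itgb2 (CD18), which pair on myeloid cells, had log2 fold changes of 0.07 and 0.28. Itgam averaged 9.78 ± 0.44 in Sel1l-/- and 9.71 ± 0.40 in WT mice and Itgb2 10.17 ± 0.61 in Sel1l-/- and 9.89 ± 0.66 in WT mice. Ccr2 read 9.0, 9.93, 9.94 and 10 in Sel1l-/- mice 1 to 4, against 9.61, 10.06, 9.43 and 10.44 in WT mice 1 to 4 and had the lowest log2 fold change (-0.17, 95% interval -0.80 to 0.47, adjusted p = 0.838). Sel1l-/- mouse 1 stood apart on Ccr2, and without it the log2 fold change was 0.07 (0.02 without WT mouse 4).

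None of the 4 Fc receptor and adapter genes passed, and their median log2 fold change was 0.29. Fcgr1, the high-affinity receptor for IgG, read 7.40, 8.22, 8.01 and 8.84 in Sel1l-/- mice 1 to 4, against 6.88, 7.85, 6.74 and 8.06 in WT mice 1 to 4, with a log2 fold change of 0.73 (95% interval -0.12 to 1.59, adjusted p = 0.421, and 0.0526 with the replicate block). WT mice 1 and 3 were lowest, and Sel1l-/- mouse 1 lay below WT mice 2 and 4. Fcgr3, a low-affinity IgG receptor, averaged 10.42 ± 0.47 in Sel1l-/- and 10.15 ± 0.44 in WT mice. Fcer1g, the gamma chain that carries the signal of Fcgr1 and Fcgr3, averaged 12.18 ± 0.33 in Sel1l-/- and 11.98 ± 0.30 in WT mice. Tyrobp (DAP12), the adapter of Trem2, averaged 11.20 ± 0.50 in Sel1l-/- and 10.88 ± 0.55 in WT mice. Their log2 fold changes were 0.27, 0.20 and 0.32, so Tyrobp had a smaller fold change than the 0.95 of the receptor it serves, a difference between the genes that was not tested.

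The C1q chains, which open the classical complement pathway, were among the steadiest of the 38 genes, and none passed (median log2 fold change 0.19 over the 3 chains). C1qa averaged 10.85 ± 0.26 in Sel1l-/- and 10.66 ± 0.28 in WT mice, C1qb 12.18 ± 0.25 in Sel1l-/- and 12.05 ± 0.24 in WT mice and C1qc 11.95 ± 0.19 in Sel1l-/- and 11.72 ± 0.18 in WT mice, with log2 fold changes of 0.19, 0.13 and 0.24. Their intervals end at 0.57, 0.47 and 0.51, which leaves no doubling of any chain inside the interval. The same holds for others of the 38 genes, among them Lyz2, Aif1 and Csf1r, with upper bounds of 0.25, 0.40 and 0.63. By contrast, 18 of the 38 intervals reach 1. The subunits of the phagocyte NADPH oxidase, the enzyme of the oxidative burst, gave log2 fold changes of 0.30 for Cybb, its catalytic membrane subunit, 0.16 for Cyba, the partner of Cybb in the membrane, and 0.07 for the cytosolic organiser Ncf1. Cybb averaged 11.53 ± 0.41 in Sel1l-/- and 11.23 ± 0.47 in WT mice, Cyba 11.63 ± 0.44 in Sel1l-/- and 11.46 ± 0.47 in WT mice and Ncf1 8.84 ± 0.59 in Sel1l-/- and 8.77 ± 0.44 in WT mice, and none passed (median 0.16).

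**Figure D3:**
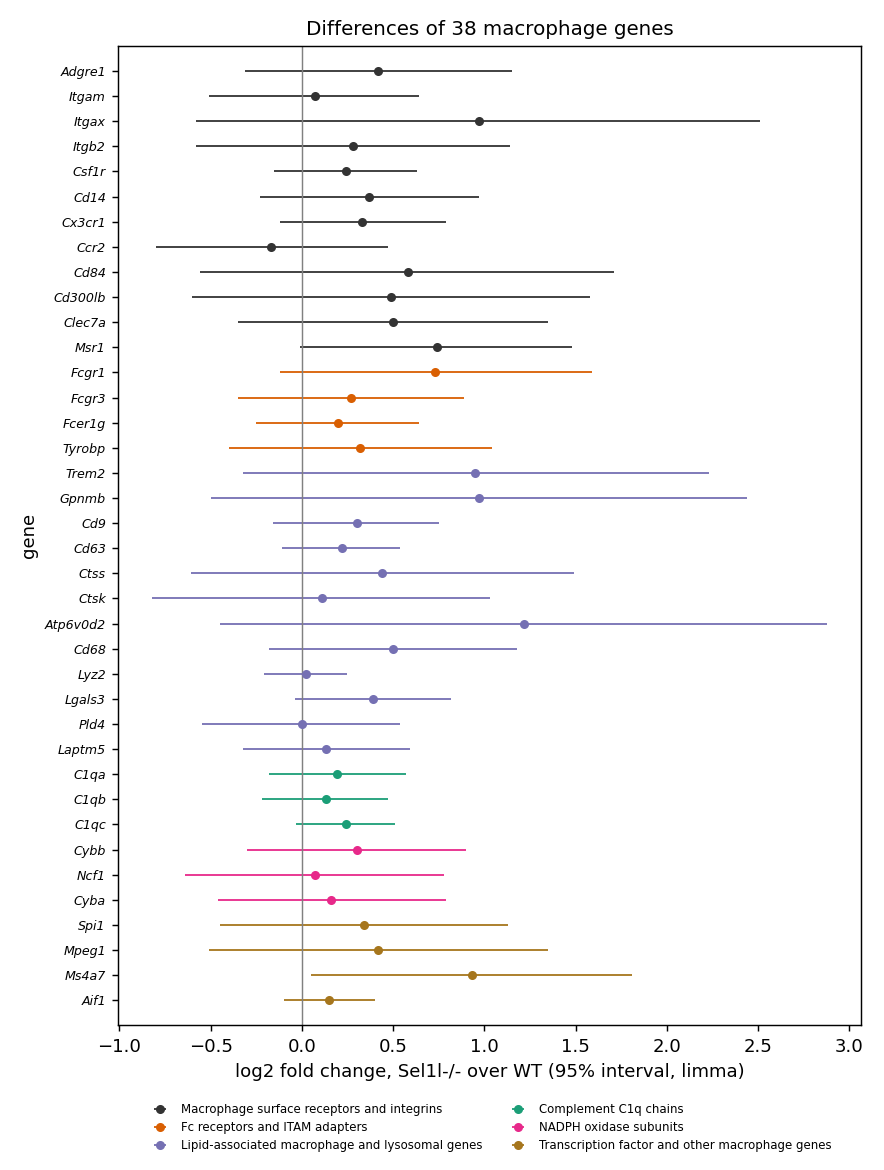
Log2 fold change of each macrophage gene, Sel1l-/- over WT (horizontal axis, log2), with its 95% limma interval, coloured by role. All intervals except that of Ms4a7 include 0, and those of Atp6v0d2, Itgax, Gpnmb and Trem2 are the widest.

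Spi1, which encodes PU.1, the transcription factor that sets up the macrophage lineage, read 9.78, 10.38, 10.18 and 11.11 in Sel1l-/- mice 1 to 4, against 9.55, 10.30, 9.50 and 10.74 in WT mice 1 to 4. The log2 fold change was 0.34 (adjusted p = 0.713) and its mice stood in the same order as those of its lineage genes, with Sel1l-/- mouse 1 and WT mice 1 and 3 lowest. Mpeg1, a pore-forming protein of macrophages, averaged 9.91 ± 0.49 in Sel1l-/- and 9.48 ± 0.84 in WT mice (log2 fold change 0.42), and Aif1 read 6.88, 7.08, 7.02 and 7.02 in Sel1l-/- mice 1 to 4, against 6.81, 7.16, 6.61 and 6.82 in WT mice 1 to 4 (log2 fold change 0.15). Ms4a7, a membrane protein of tissue macrophages, read 8.54, 8.97, 8.84 and 9.68 in Sel1l-/- mice 1 to 4, against 7.63, 8.83, 7.21 and 8.63 in WT mice 1 to 4. Its log2 fold change of 0.93 (95% interval 0.05 to 1.81, unadjusted p = 0.0406, adjusted p = 0.308) had the smallest p of the 38 genes. Each Sel1l-/- mouse lay above WT mice 1 and 3, and WT mice 2 and 4 lay within the Sel1l-/- range. For 27 of the 38 genes all Sel1l-/- mice were above the 2 lowest WT mice, as they were for 26.5% of all genes. Spi1, Mpeg1, Aif1 and Ms4a7 had a median log2 fold change of 0.38.

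Larger fold changes came with larger spread between mice. The SD within groups, pooled over both genotypes, had a median of 0.48 (log2) over the 38 genes, and 0.13 over all genes. It ran from 0.16 for Lyz2 to 1.24 for Atp6v0d2, and 31 of the 38 were above the 90th percentile of all genes, 0.31. Over the 38 genes this SD and the log2 fold change had a Pearson r of 0.79 and a Spearman rho of 0.70, given as a description, since both are computed from the same 8 arrays. The difference was smaller than the pooled SD for 30 genes. Ms4a7, Msr1 and Fcgr1 exceeded it by the most.

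**Figure D4:**
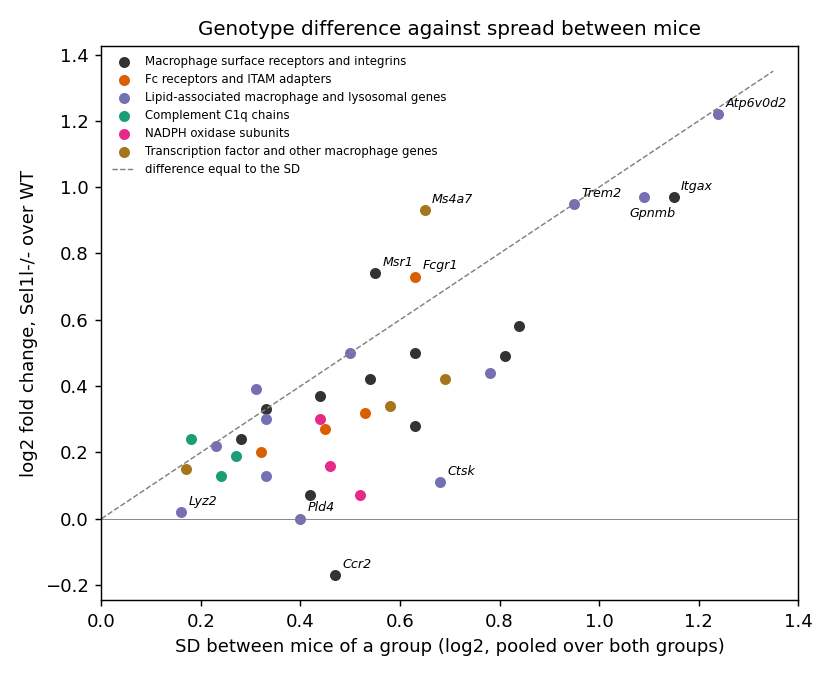
Log2 fold change, Sel1l-/- over WT (vertical axis), against the SD between mice of a group on the log2 scale (horizontal axis) for the 38 macrophage genes, coloured by role. Most points lie below the dashed line on which the difference equals the SD; Atp6v0d2 is farthest to the right at 1.24.

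Since the genes moved together from mouse to mouse, the 250 bases before their starts were searched for a short motif of PU.1, GAGGAA, on both strands. RefSeq promoters (GRCm38.p6) were at hand for 29 of the 38 genes, in 32 windows, of which 15 (46.9%) held GAGGAA, against 23.3% of all 32851 windows. The longer GAGGAAGT, which contains GAGGAA, was in 1 window (3.12%, against 2.44% of all). The E-box CACGTG, read by the lysosomal regulators TFEB and MITF, was in none (6.02% of all), and TATAAA was in 3 (9.38%, against 12.4%). Some genes have more than 1 window, and a match of letters does not show that the factor binds. The upstream sequences of 5 genes are shown, 5′ to 3′ in the direction of the gene, with any GAGGAA or its complement TTCCTC in capitals: Trem2, Gpnmb and Itgax from the genes of widest spread, Cd68 as a general macrophage gene and C1qc as the 1 gene with the longer motif. Trem2 (chr17:48346151-48346400, plus strand) holds 1 match, Gpnmb (chr6:49036268-49036517, plus strand) and Itgax (chr7:128129300-128129549, plus strand) hold none, and Cd68 (chr11:69666171-69666420, minus strand) and C1qc (chr4:136892915-136893164, minus strand) hold 1 each.
Trem2: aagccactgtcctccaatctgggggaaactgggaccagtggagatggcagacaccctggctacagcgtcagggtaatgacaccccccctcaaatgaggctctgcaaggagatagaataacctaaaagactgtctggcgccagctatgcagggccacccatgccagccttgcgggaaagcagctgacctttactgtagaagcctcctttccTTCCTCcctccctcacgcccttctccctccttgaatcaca
Gpnmb: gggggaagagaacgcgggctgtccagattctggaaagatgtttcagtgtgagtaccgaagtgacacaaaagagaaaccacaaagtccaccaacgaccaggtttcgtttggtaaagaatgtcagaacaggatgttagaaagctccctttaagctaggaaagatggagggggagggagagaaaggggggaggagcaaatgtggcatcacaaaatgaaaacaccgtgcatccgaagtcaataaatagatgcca
Itgax: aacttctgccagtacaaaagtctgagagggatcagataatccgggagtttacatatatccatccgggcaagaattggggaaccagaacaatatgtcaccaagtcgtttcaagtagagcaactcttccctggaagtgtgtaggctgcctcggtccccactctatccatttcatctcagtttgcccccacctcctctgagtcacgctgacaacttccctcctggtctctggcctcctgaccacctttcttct
Cd68: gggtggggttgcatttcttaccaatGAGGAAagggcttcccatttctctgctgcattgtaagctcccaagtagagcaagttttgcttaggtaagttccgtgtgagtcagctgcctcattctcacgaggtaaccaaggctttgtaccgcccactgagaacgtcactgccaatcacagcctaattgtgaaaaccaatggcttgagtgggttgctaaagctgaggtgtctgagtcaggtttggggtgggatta
C1qc: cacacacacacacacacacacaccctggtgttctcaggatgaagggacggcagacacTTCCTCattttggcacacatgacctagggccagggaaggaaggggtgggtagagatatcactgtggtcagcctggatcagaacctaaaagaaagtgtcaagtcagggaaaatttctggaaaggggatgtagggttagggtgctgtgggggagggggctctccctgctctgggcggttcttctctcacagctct
The match lay close to the start in Trem2, beginning 40 bases before it, and farther off in Cd68 (225 bases) and C1qc (193 bases). Itgax and Gpnmb, with no match in this window, and Trem2 and Cd68, with 1, all had Sel1l-/- mouse 1 lowest and mouse 4 highest of their group, and WT mice 1 and 3 below WT mice 2 and 4. The first order held for 37 of the 38 genes and the second for all 38, so genes with and without a match could hardly differ here. Whether the motif bears on the order of mice was not tested.

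Other genes that feed or serve macrophages were read from 7 lists of 77 genes, of which 69 were measured. Of these, 1 rose (Mif) and none fell, where 1.04% of all genes rose and 0.685% fell, and the median log2 fold change was 0.09. Mif, a cytokine named for slowing macrophage migration, read 11.19, 11.16, 11.11 and 11.13 in Sel1l-/- mice 1 to 4, against 10.58, 10.62, 10.67 and 10.79 in WT mice 1 to 4, without overlap (log2 fold change 0.48, adjusted p = 0.0103), and the call was lost with the letter (adjusted p = 0.265) or number (0.0813) block. Its mice did not follow the order of the macrophage genes: Sel1l-/- mouse 1 was the highest for Mif. The gene is made by many cell types. Of the 11 growth factors and chemoattractants measured with it no other passed, and their median was -0.05. With the replicate block Ccl3, a chemokine that draws monocytes, also rose (log2 fold change 0.97, adjusted p = 0.0281, and 0.35 without the block), a gene named after its values were seen. In that fit 2 of the 69 genes rose, where 1.90% of all genes did. Of 10 genes of Trem2 and Fc receptor signalling none passed (median 0.23). Apoe, a lipid carrier and Trem2 ligand, averaged 12.73 ± 0.08 in Sel1l-/- and 12.95 ± 0.21 in WT mice and the kinase Fgr 7.22 ± 0.26 in Sel1l-/- and 7.54 ± 0.46 in WT mice (log2 fold changes -0.21 and -0.32). Of 4 partners of the oxidase none passed (median 0.07), with Rac1, its small GTPase, at 0.05 and Cybc1, a chaperone of its membrane part, at -0.05.

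None of 8 other Fc and complement receptors passed (median 0.24), with C1qbp, a mitochondrial protein first found as a C1q binder, at 0.24 (adjusted p = 0.221) and Vsig4, a complement receptor of resident macrophages, at 0.44. None of 11 scavenger and lipid receptors and lipid handling genes passed (median 0.00). Stab1, a clearance receptor, averaged 10.29 ± 0.20 in Sel1l-/- and 9.73 ± 0.37 in WT mice (log2 fold change 0.56, adjusted p = 0.188, and 0.0418 without WT mouse 2), and Marco had a log2 fold change of -0.34. Of 14 other lysosomal genes none passed (median 0.09). Lipa, the lysosomal acid lipase, averaged 11.54 ± 0.43 in Sel1l-/- and 11.02 ± 0.61 in WT mice and followed the mean of the macrophage genes with an r of 0.984 over 8 arrays, while the cholesterol transporter Npc1 had a log2 fold change of 0.21. Of 11 myeloid transcription factors none passed (median 0.21), with Cebpb at 0.30 (adjusted p = 0.229, and 0.0450 without WT mouse 4) and Nr1h3, the oxysterol receptor LXR alpha, at -0.14.

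Markers of the other cells of the tissue were set beside these values. The mean of 6 adipocyte markers was 12.56, 12.49, 12.53 and 12.15 in Sel1l-/- mice 1 to 4, against 12.76, 12.65, 12.71 and 12.50 in WT mice 1 to 4. All 6 had negative fold changes, none passed, and the lowest mean of each genotype was that of mouse 4, which was also the highest of its genotype for the macrophage mean. Adipoq averaged 12.15 ± 0.24 in Sel1l-/- and 12.72 ± 0.15 in WT mice (log2 fold change -0.56, adjusted p = 0.0753, and 0.0204 with the replicate block) and Cidec, a lipid droplet protein, had a log2 fold change of -0.11. The part of the adipocyte share in the macrophage values was not tested.

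Genes of resident macrophages shared the order of mice only in part. By their mean, Sel1l-/- mouse 1 was again lowest of its group (9.68), but mouse 3 was highest (9.99). WT mouse 4, highest of its group for the macrophage mean, was lowest of its group here (9.71). The mean of the 7 resident macrophage genes was 9.68 to 9.99 in Sel1l-/- and 9.71 to 10.07 in WT mice. Of the 7, 3 had positive and 4 negative fold changes, with a median log2 fold change of -0.09 and a highest of 0.36. The 1 that passed was Retnla, a secreted protein of alternatively activated macrophages that fat also makes. Retnla fell (log2 fold change -0.74, limma adjusted p = 0.0224), although its call was lost without any 1 of 5 mice (adjusted p up to 0.0690), with the letter (0.151) or number (0.13) block and without variance moderation (0.0776). Endothelial markers were 9.90 to 10.24 in Sel1l-/- and 10.41 to 10.64 in WT mice on average, and 1 of 6 fell, Pecam1 (log2 fold change -0.39, adjusted p = 0.029), a call lost without any 1 mouse (up to 0.102), with the letter (0.399) or number (0.153) block and without variance moderation (0.0555). With the replicate block 2 of the 6 fell, where 367 of all 18820 genes did. These were Pecam1 and Tek (log2 fold change -0.35, adjusted p = 0.0437, and 0.0632 without the block), and Tek was named after its values were seen. Neutrophil markers averaged 4.76 to 5.03 in Sel1l-/- and 5.03 to 5.43 in WT mice, not far above the lower quartile of all probe sets, and none of 9 passed, with Elane at -0.38 and Retnlg at -0.46. None of 8 dendritic cell, 4 monocyte, 6 mast cell, 7 T and NK cell, 5 B cell and 5 fibroblast markers passed. Their genes of smallest p had log2 fold changes of -0.34 for Batf3 and 0.41 for Clec9a, -0.27 for Nr4a1 and -0.41 for Chil3, -0.52 for Kit and -0.13 for Fcer1a, 0.19 for Cd3d and -0.08 for Cd8a, -0.52 for Cd79b and -0.62 for Ms4a1, and -0.32 for Dpt and -0.31 for Pi16. With the replicate block, where 367 of all 18820 genes fell, 1 of 6 mast cell markers fell, Kit (adjusted p = 0.04). In that fit 1 of 5 B cell markers also fell, Cd79a (log2 fold change -0.64, adjusted p = 0.0496, and 0.416 without the block), and Cd79a was named after its values were seen. Pi16, a marker of fibroblast progenitors, ran against the macrophage mean over the 8 arrays (r = -0.910), with no genotype call (adjusted p = 0.3). The 5 fibroblast markers did not all go that way. Of the 5, 2 had positive fold changes, and the median log2 fold change was -0.08. Their mean was highest of its group in Sel1l-/- mouse 4 (10.91) and lowest of its group in WT mouse 4 (10.68).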

How the data were processed

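White adipose tissue RNA of 8 mice was hybridised to 1-colour arrays. The deposited values are log2 expression, made by the authors with RMA per the submitters' processing notes (background correction, quantile normalization and probe set summary); version and annotation are not given in the sources used here. RMA makes array distributions alike, so a shift of most transcripts would not show. Of 35556 probe sets, 21218 carried 1 gene in the supplied platform annotation, 1881 several and 12457 were unnamed. Each gene was read from its brightest such probe set, giving 18820 genes.

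The genotype comparison used lmFit and eBayes of limma 3.58.1 under R 4.3.3, tested on simulated data. Its two-sided p-values were adjusted (Benjamini-Hochberg) across the 18820 genes, and 0.05 was the threshold. Figures used matplotlib 3.10.9. Named genes were Sel1l, the 38 macrophage genes, up to 3 genes past the threshold (or the 2 of smallest p) in each of 17 other lists, and the 6 genes most correlated with the macrophage mean. Members and lists were chosen with earlier results of these data known. Alternatives were blocks, scaling, filters, probe set choice, spread models, array weights and leaving out each array.

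Deviations of same-numbered mice correlated positively (r = 0.518, 0.107, 0.363 and 0.524 over all genes), so the replicate number was taken as a pairing from the data. Mice of different numbers reached 0.328, above the value for number 2. Nothing in the labels says what the numbers share.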

Additional observations from a re-analysis of the deposited data

Results flagged for a closer look

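In 5 of 152 sets of 4 mice (76 genes, each genotype), 1 mouse stood apart by Dixon's criterion, where chance gives about 1 in 20. Ccr2 was 9.0 in Sel1l-/- mouse 1 and 9.93 to 10 in the other Sel1l-/- mice. Retnla was 11.32 in Sel1l-/- mouse 1 and 11.73 to 11.79 in the others. In WT mouse 2, Stab1 was 10.27, and 9.49 to 9.61 in the other WT mice. In WT mouse 4, Retnlg was 6.18 (5.47 to 5.55 in the others) and Ms4a1 was 5.87 (6.66 to 6.81 in the others).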

How the results depend on the processing

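No macrophage gene passed under 17 of the 18 alternatives, of which the removal of the dimmer 50% of genes held 37 of the 38 (not Aif1); with the replicate block, 1 passed (Msr1). Leaving out 1 mouse gave 0 to 0 of the 38 past the threshold and 0 to 2 without overlap, and the mean of the 38 genes then differed by 0.18 to 0.58 between genotypes. Over all genes 324 passed (195 higher, 129 lower), 725 with the replicate block, 20 with the mouse code letter and 11 with its number as a block, 124 without variance moderation, 566 with array weights and 100 to 336 when 1 mouse was left out; centring the arrays gave 119 higher and 154 lower (43.6% higher, against 60.2%) and shifted the median of all genes by -0.05. Of the 69 other pathway genes, 1 passed, 2 (Mif and Ccl3) with the replicate block, 0 with the letter or the number, and 1 to 2 when 1 mouse was left out. Sel1l lost its call with the letter block (log2 fold change -0.98, adjusted p = 0.151), the number block (-0.80, 0.0813) and no moderation (-0.79, 0.054). Apart from the genes named beside their results, the replicate block changed the call of no other named macrophage gene. The letter block compares genotypes only within letter F, WT mouse 4 against Sel1l-/- mice 1 and 2; it gave -0.45 for the macrophage mean and turned the sign of 43 named genes, with log2 fold changes of Adgre1 -0.42, Itgam -0.56, Itgax -0.87, Itgb2 -0.75, Csf1r -0.18, Cd14 -0.24, Cx3cr1 -0.21, Cd84 -0.82, Cd300lb -0.95, Clec7a -0.70, Fcgr1 -0.25, Fcgr3 -0.48, Fcer1g -0.34, Tyrobp -0.54, Trem2 -0.74, Gpnmb -0.65, Cd9 -0.02, Cd63 -0.07, Ctss -0.88, Ctsk -0.80, Atp6v0d2 -0.82, Cd68 -0.33, Lyz2 -0.22, Lgals3 -0.23, Laptm5 -0.43, C1qa -0.02, C1qb -0.20, Cybb -0.31, Ncf1 -0.71, Cyba -0.61, Spi1 -0.66, Mpeg1 -0.84, Apoe 0.04, Lipa -0.42, Cd79b 0.02, Ms4a1 0.42, Pi16 0.04, Myo1f -0.68, Ifi30 -0.38, Dpep2 -0.59, Cd53 -0.50, Matk -0.33 and Lpxn -0.58. Signs also turned with the number block for Ctsk (-0.01) and Pld4 (0.01), with array weights for Ctsk (-0.13) and Lyz2 (-0.01), with centring for Lyz2 (-0.02), and when 1 mouse was left out for Itgam (-0.11 to 0.24), Ccr2 (-0.32 to 0.07), Ctsk (-0.26 to 0.31), Lyz2 (-0.04 to 0.08), Pld4 (-0.17 to 0.17), Ncf1 (-0.16 to 0.31) and Cyba (-0.03 to 0.35). The cause was not tested. With 4 mice a genotype, changes inside the intervals could not be told from none, and the probes of Lyz2 and Fcgr3 may read Lyz1 and Fcgr2b.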
